A study of Caenorhabditis elegans with 2 samples.

Results

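The genes of the worm DREAM complex, 8 of the 19973 nuclear protein-coding genes of Caenorhabditis elegans, were examined for binding of the fusion protein RCOR-1::eGFP. They were taken by name: the E2F gene efl-1, the DP gene dpl-1, the retinoblastoma family gene lin-35, and lin-53, lin-9, lin-37, lin-52 and lin-54 of the MuvB core. For each gene, ChIP-seq peak summits were read from 1000 bp upstream of its 5' end to its end. Whole young adults of strain RW12222, aged 65 hours and synchronised by bleaching and L1 starvation, made up 2 biological replicates. Both replicates carry the CRISPR insertion st12222, which adds TY1, EGFP and 3xFLAG tags to rcor-1 at its own locus, and anti-GFP antibody was used for both precipitations. RCOR-1 is a CoREST-type corepressor. The series has this 1 group, no untagged strain was analysed here, and whole animals mix germline and somatic tissues, so the tissue in which a site is occupied cannot be told from these data.

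DREAM joins a DNA-binding E2F and DP pair, a pocket protein of the retinoblastoma family, and the MuvB core, whose subunit LIN-54 itself contacts DNA. In animals the complex is known for repressing cell cycle genes in cells that do not divide. In the worm its genes belong to class B of the synthetic multivulva (synMuv) genes, which restrain vulval fates, and they also keep germline genes silent in somatic cells. E2F factors bind GC-rich sequences such as TTCCCGC and TTCGCGC, and LIN-54 proteins bind the cell cycle homology region (CHR), of the form TTTGAA.

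Of the 4 upstream member peaks with matches to both kinds of sequence, those of efl-1, lin-9 and lin-54 are shown as examples. They were read from the WBcel235 reference (the ce11 build), 5' to 3' on the strand of each gene, with every match to these sequences on either strand in capitals. The stretches reach 100 bp to each side of the summit and stop where an annotated gene begins. The summit is base 101 in efl-1 and lin-9 and base 36 in lin-54.
efl-1, chrV:16965744-16965944, minus strand: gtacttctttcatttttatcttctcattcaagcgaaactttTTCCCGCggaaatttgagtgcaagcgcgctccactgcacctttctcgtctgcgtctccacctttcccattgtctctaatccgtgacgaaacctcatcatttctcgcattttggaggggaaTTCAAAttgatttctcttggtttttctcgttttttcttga
lin-9, chrIII:8904152-8904352, minus strand: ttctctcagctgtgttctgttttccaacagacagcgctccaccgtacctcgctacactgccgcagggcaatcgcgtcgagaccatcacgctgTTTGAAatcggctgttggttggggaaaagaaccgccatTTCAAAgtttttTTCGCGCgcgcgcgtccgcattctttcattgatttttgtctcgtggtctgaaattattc
lin-54, chrIV:13240652-13240787, plus strand: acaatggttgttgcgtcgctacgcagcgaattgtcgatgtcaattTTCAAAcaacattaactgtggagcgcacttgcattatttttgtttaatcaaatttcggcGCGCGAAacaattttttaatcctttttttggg

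Each of these stretches held 1 E2F match and at least 1 CHR match. In lin-9 the E2F match TTCGCGC and a CHR match were separated by 6 bases, and a further CHR match lay beside the summit, its centre 6 bp from it. Within the printed stretches the nearest matches of both kinds were 53 bases apart in lin-54 and 113 bases apart in efl-1. Beyond the efl-1 stretch, a further CHR match, its centre 111 bp from the summit, lay nearer to the E2F match. The efl-1 E2F match began at base 42 of the stretch, its centre 56 bp from the summit. In efl-1 and lin-9 the printed CHR match nearest to the E2F match, and in lin-54 both matches, were read on the opposite strand.

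RCOR-1::eGFP peaks were found at 6 of the 8 DREAM genes. In the conservative list, which the authors made between both replicates, efl-1, lin-35, lin-53, lin-9, lin-52 and lin-54 had at least 1 summit in their window (75.0%), and dpl-1 and lin-37 had none. Over all protein-coding genes, 2045 of 19973 (10.2%) had a summit in the same window. The windows of the members had a median length of 3507 bp, against 3027 bp over all genes. The members were chosen with earlier results of these data known, and no test was made of this count. In the list of replicate 1 alone the same 6 genes had a summit (background 7.44%), and in that of replicate 2 alone 5 had one, without lin-52 (background 6.99%). The conservative list and both replicates' lists held a summit at 5 members, efl-1, lin-35, lin-53, lin-9 and lin-54, and at 5.24% of all genes. The lists are not independent of the conservative list, because a peak enters the latter only if it ranks alike in both replicates.

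At 5 of the members the strongest peak sat just upstream of the gene, and at lin-52 it lay inside the gene. Measured from the 5' end of the gene, these upstream summits lay at -121 bp for lin-9, -162 bp for lin-35, -169 bp for efl-1, -227 bp for lin-53 and -357 bp for lin-54, all in intergenic sequence. A weaker peak of lin-9 lay in an intron at +2860 bp. Among the 2045 genes with a summit, the strongest one was within 500 bp upstream at 1124 (55.0%). The median distance from a 5' end to the nearest conservative summit was 198 bp for the members and 18346 bp for all protein-coding genes. None of the members' conservative summits had a tRNA, snRNA, snoRNA, rRNA or microRNA gene starting within 500 bp. The share over all conservative peaks is not given here, so this is not read as a trait of the members.

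**Figure D1:**
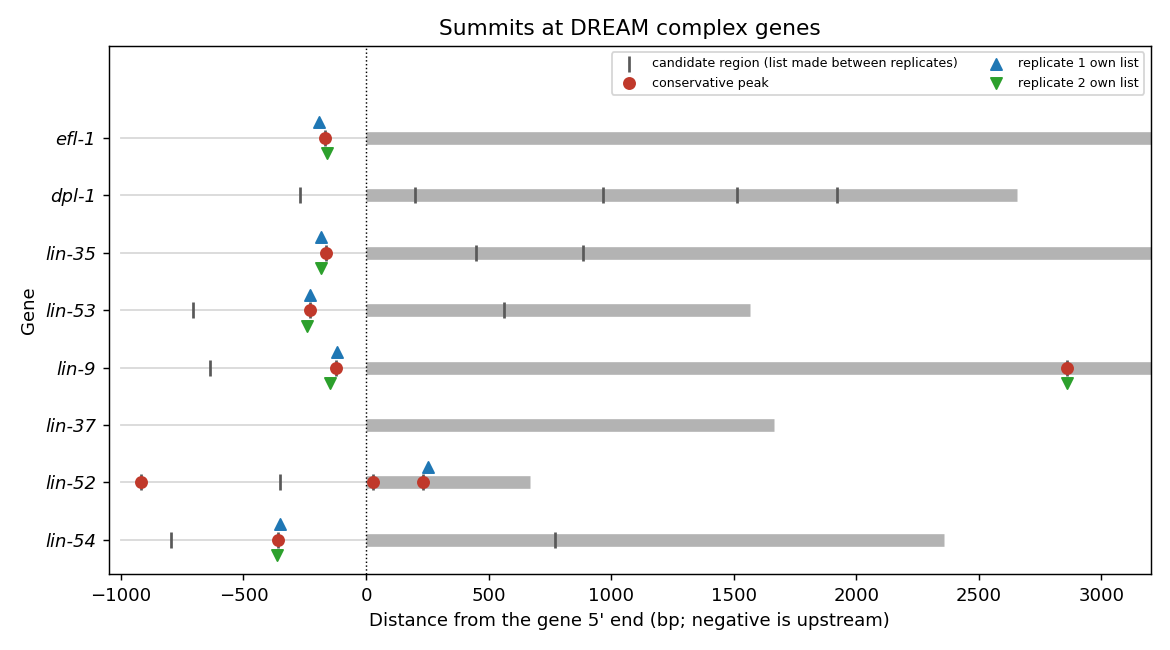
Summit positions at the 8 DREAM genes, in bp from the gene 5' end (x axis, negative upstream), one gene per row, with grey bars for the gene bodies and the right edge cutting off the far ends of the longest genes. Circles are conservative peaks, triangles the peaks of each replicate's own list and ticks the candidate regions of the list made between replicates; at 5 genes the strongest conservative peak and the strongest peak of each replicate stack between -118 and -361 bp, lin-9 has a further peak at +2860 bp, dpl-1 has ticks only and lin-37 has nothing.

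The E2F gene efl-1, which encodes a DNA-binding subunit, had 1 peak (V, 16965817 to 16965894, ce11). The authors' signal value, a measure of peak strength in a unit that the file notes do not define, was 171.4 in the conservative list. Replicate 1 gave 70.1 and replicate 2 gave 104.3 at this site. The conservative signal was higher than or equal to that of 87.7% of the nuclear conservative peaks. The replicates' summits were 31 bp apart. The next gene, fbxa-90, faces away, with the summit at -970 bp from its 5' end, so efl-1 has the nearest 5' end. The other E2F family genes, efl-2 and efl-3, had no conservative summit.

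The DP gene dpl-1, whose product pairs with E2F proteins to bind DNA, had no peak in any thresholded list. The gene (II, 9169910 to 9172565) lies inside T23G7.2, which is annotated on the opposite strand. The list made between replicates, which ranks every candidate region, held 5 regions there, with signals of 11.9 to 33.1. The strongest, in a coding exon of dpl-1 at +1513 bp, was at the 72.7th percentile of all nuclear candidate regions. On this scale the strongest peaks of lin-35 and lin-52 were at the 98.9th and 95.2nd percentile. The region nearest to the position of the other members' peaks, at -269 bp, had a signal of 31.8. Its −log10 of the irreproducible discovery rate (IDR, the rate at which regions of that rank fail to repeat) was 0.31, and no conservative region was below 2. Replicate 1 gave 12.6 and replicate 2 gave 23.7 at this region, the 41.3rd and the 74.1st percentile. The nearest conservative summit was 41983 bp away from the dpl-1 5' end.

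The pocket protein gene lin-35, the only retinoblastoma family gene of the worm, had 1 peak (I, 5807407 to 5807686). Its signal was 138.8 in the conservative list, the 80.4th percentile there, with 63.7 in replicate 1 and 81.6 in replicate 2. Both replicates placed the summit at the same base, at -182 bp. The peak lay in the 417 bp between lin-35 and the divergent gene vps-51, which encodes a vesicle tethering subunit. The summit was at -162 bp from lin-35 and -256 bp from vps-51, so the site is upstream of both. A candidate region at the shared 3' ends of lin-35 and hmg-3, with a signal of 36.1, had a −log10 IDR of 0.60 and was not in the conservative list.

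Of the MuvB genes, lin-54, lin-53 and lin-9 had the strongest peaks of the group. The gene lin-54 encodes the subunit that binds CHR sequences, and its peak (IV, 13240599 to 13240772) had a signal of 376.6, rank 38 of 2324 nuclear conservative peaks. Replicate 1 gave 178.5 and replicate 2 gave 206.2, with summits 11 bp apart. The summit was at -36 bp from the ribosomal protein gene rpl-12, on the other strand, and at -357 bp from lin-54. This peak therefore lies nearer to rpl-12 than to lin-54, and which gene it serves was not tested.

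The gene lin-53 encodes an RbAp-type histone-binding protein that is also part of several other chromatin complexes. Its peak (I, 9619906 to 9620065) had a signal of 295.3, rank 75, with 140.4 in replicate 1 and 155.3 in replicate 2 and summits 14 bp apart. It lay in the 466 bp between lin-53 and the divergent gene nra-2, at -227 bp from the former and -240 bp from the latter. The summit is thus nearly midway. The neighbouring gene rba-1, a close relative of lin-53, had no conservative summit.

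The gene lin-9 encodes the MuvB scaffold subunit and had 2 conservative peaks. The upstream one (III, 8904184 to 8904359) had a signal of 292.3, rank 76, with 130.7 in replicate 1 and 168.8 in replicate 2. The next 5' end of another protein-coding gene was that of unc-32, with the summit at -1363 bp from it. The weaker peak lay in an intron at +2860 bp (8901131 to 8901410), with a signal of 80.5, the 40.5th percentile of conservative peaks. It was in the list of replicate 2 (51.1) but not in that of replicate 1, where a candidate region with a signal of 29.7 and a −log10 IDR of 0.34 lay at the same place.

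The gene lin-52 encodes the small MuvB subunit that in mammals bridges to the pocket protein, and its 3 peaks were weak. Overlapping regions in the gene had summits in coding exon sequence at +233 bp (9824377 to 9824656) and +28 bp (9824582 to 9824861), 205 bp apart, with signals of 64.3 and 24.1. Replicate 1 had a peak at +252 bp with a signal of 41.2. Within the gene, replicate 2 had only a candidate region at +19 bp, with a signal of 30.9 and a −log10 IDR of 0.12. The regions of the replicates overlapped, but their summits were at different places in this short gene. The remaining peak, at -917 bp (60.3), lay upstream of ZK632.9, a gene on the same strand that ends 126 bp before lin-52, and was nearer to the 5' end of that gene. It was not in the other thresholded list. The signals were low in the conservative list, at the 17.0th, 4.0th and 11.7th percentile in the order given. At the -917 bp peak the ranked lists gave 32.4 in replicate 1 and 30.4 in replicate 2, with summits 160 bp apart. Among the 2152 conservative peaks with such a pair of candidate regions, 0.4% had a larger shift.

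The gene lin-37 encodes a further MuvB subunit, known in the worm and in mammals for its part in repression, and its window held no region of any kind. No ranked list of the series, whether made between replicates or within one, had a candidate region from 1000 bp upstream of lin-37 to its end (III, 7070890 to 7072552). The same was true of 19.9% of protein-coding genes, while 64.7% had a candidate region in the list made between replicates. The end of ZK418.5 and the start of lin-37 are 60 bp apart on the same strand. The nearest conservative summit was 3712 bp downstream of the lin-37 5' end.

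**Figure D2:**
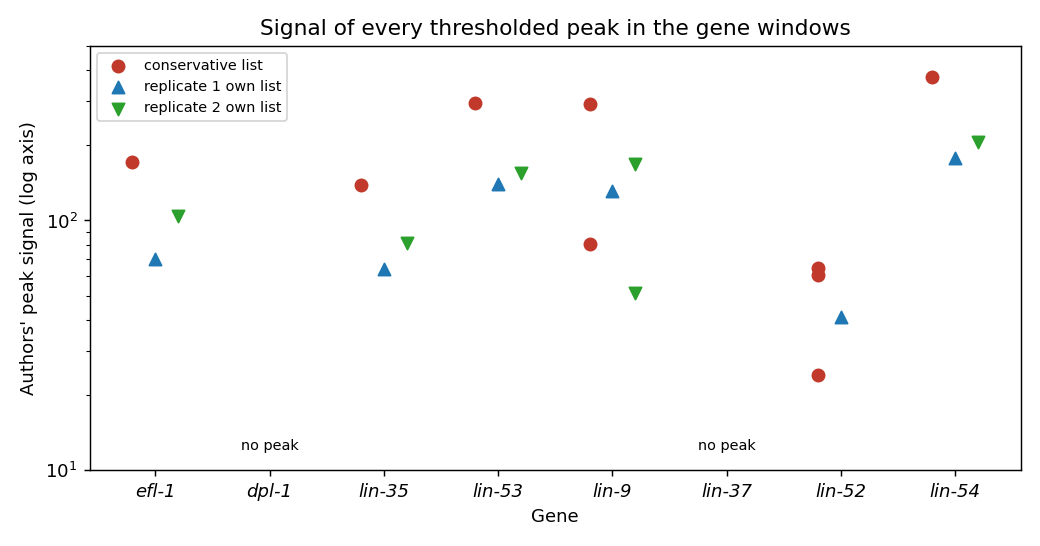
The authors' signal (y axis, log scale) of every thresholded peak in the window of each gene (x axis), with circles for the conservative list and triangles for each replicate's own list; scales differ between lists, so heights compare only within 1 marker type. The order is lin-54, lin-53, lin-9, efl-1, lin-35 and lin-52 in the conservative list, with 376.6 and 64.3 at its ends, and dpl-1 and lin-37 have no peak.

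The order of the members was much the same in each replicate. Replicate 1 ranked lin-54, lin-53, lin-9, efl-1, lin-35 and lin-52. In replicate 2 lin-9 (168.8) came before lin-53 (155.3), and lin-52 had no peak. The order of lin-53 and lin-9, with conservative signals of 295.3 and 292.3, thus did not hold in both replicates. Replicate 2 had the higher signal at all 5 members with a peak in both, by 1.11 to 1.49 times with a median of 1.28. Over the 1002 conservative peaks with a summit of both replicates inside, the median ratio was 1.27, so the members shared the shift in scale between the lists. Their summits were 0 to 31 bp apart between replicates, with a median of 14 bp, against 15 bp for those 1002 peaks.

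Among the genes with a conservative summit, the members had a median strongest signal of 231.8, against 97.3 for all 2045 genes. By this value lin-54 was 36th, lin-53 73rd, lin-9 75th, efl-1 321st, lin-35 497th and lin-52 1828th. Regions of the conservative list mostly have a width of 280 bp. The regions of efl-1, lin-53, lin-9 and lin-54 were narrower, 4 of the 5 upstream member peaks, as were 13.9% of all nuclear conservative peaks. Among the 457 conservative peaks at least as strong as that of lin-35, 65.0% were narrower, so width moved with signal.

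**Figure D3:**
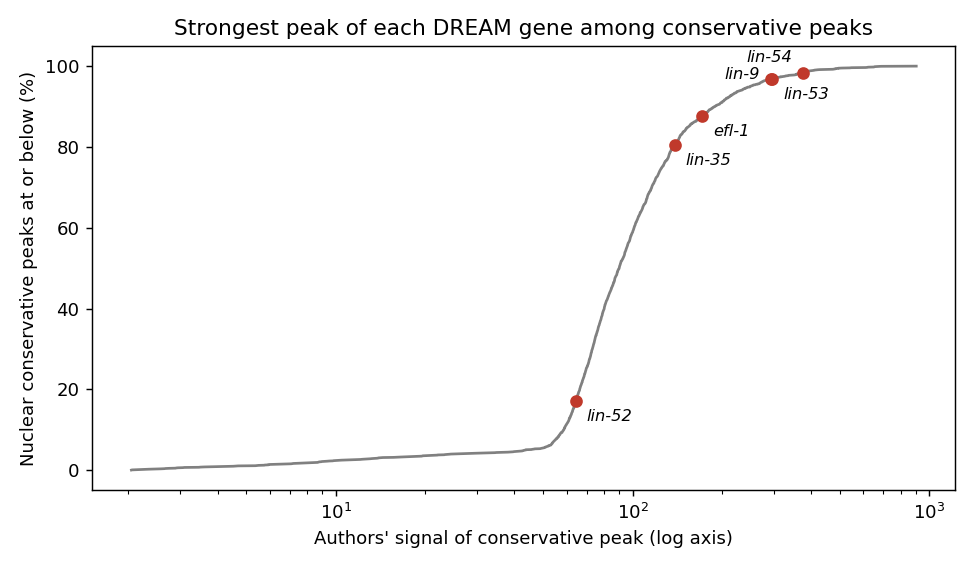
Share of nuclear conservative peaks (y axis, percent) at or below a given signal (x axis, log scale; grey line), with the strongest peak of each DREAM gene as a red point. The peaks of lin-54, lin-53 and lin-9 lie above 96% of the peaks, efl-1 and lin-35 above 80%, and lin-52 at 17.0%.

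The count of bound members changed little with the way summits were assigned. It was 6 with the other thresholded list of the series (background 10.5%), within 500 bp of the gene 5' end (6.64%), within 500 bp of any transcript 5' end (7.05%), from 1000 bp upstream to 100 bp downstream (7.78%) and from 2000 bp upstream to the gene end (12.5%). It was 5 when a summit counted only for the gene with the nearest 5' end (7.34%), because the lin-54 peak then went to rpl-12. It was also 5 when weaker peaks, those not above the median signal, were left out (5.8%), and for peaks found in both replicates' own lists (5.22%), where lin-52 dropped out.

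E2F sequences were present within 150 bp of the summit at 4 of the 5 upstream member peaks, a set chosen after seeing the data, and at none of the other member peaks. Within 50 bp only the lin-9 peak held one, 1 of 5 against 11.0% of all upstream conservative peaks. Within 150 bp of the summit, TTCCCGC or TTCGCGC on either strand occurred at efl-1, lin-53, lin-9 and lin-54, and not at lin-35. One of them occurred at 18.3% of the 944 conservative peaks within 500 bp upstream of a protein-coding gene, at 13.7% of all 2324 nuclear conservative peaks and at 6.4% of 42672 candidate regions that overlapped no conservative peak. The CHR sequences TTTGAA or TTCGAA occurred at the same 4 upstream member peaks and at the 3 peaks of lin-52, but also at 67.8%, 59.9% and 58.7% of these sets. A match is a stretch of letters and not evidence of binding by these factors. GC content was read over each peak region, and these differ in width, with 78 bp at efl-1 and 280 bp at lin-35. At the 4 peaks with an E2F match it was 52.6% for efl-1, 50.6% for lin-53, 53.4% for upstream lin-9 and 43.1% for lin-54. The matches of efl-1 and lin-53 lay outside their regions, and the 201 bp stretch with the efl-1 match had 42.3%. At peaks without a match the regions had 35.4% for lin-35 and 33.2% to 34.6% for the 3 of lin-52. The intron region of lin-9 had 45.4%, which was above that of lin-54. The median over conservative peaks was 41.8%, and the part of GC content in the matches was not tested.

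Other synMuv genes, the partners of LIN-53 and genes of the cell cycle were counted in the same way. Among 11 other class B synMuv genes 4 had a conservative summit (36.4%, background 10.2%), and among 4 class A genes none did. This rested on the list used: the list of replicate 1 held a summit at 2 of the class B genes and at none of class A, and that of replicate 2 at none of class B and at 1 of class A. The strongest of class B was lin-61, which encodes an MBT-repeat protein (signal 92.2), at a site shared with the checkpoint kinase gene bub-1 and nearer to the latter. The zinc finger gene lin-13 (69.2) and the histone deacetylase gene hda-1 (68.2) followed, with summits at -886 and -937 bp. The hda-1 summit was nearer to ril-1, at -323 bp. The list of LIN-53 partners in other complexes, which shares hda-1, let-418 and mep-1 with the class B list, had 3 of 11 (27.3%): lin-40, an MTA-type subunit (69.7), hda-1, and the zinc finger gene mep-1 (67.4). In neither replicate's own list did a gene of this partner list have a summit.

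The synMuv suppressors, genes whose loss suppresses the synMuv phenotype, had summits at 3 of 7 (42.9%, background 10.2%). These were mrg-1, which encodes a chromodomain protein (143.4), zfp-1, a PHD finger gene with its summit inside the gene (110.8), and mes-2, the worm Polycomb methyltransferase (68.6). Cell cycle regulators had summits at 7 of 18 (38.9%), with 5 in the list of replicate 1 (background 7.44%) and 4 in that of replicate 2 (6.99%). For peaks found in both replicates' own lists the count was 2, and the background was lower too (5.22%). The cell cycle genes were led by the B-type cyclin genes cyb-2.2 (151.4) and cyb-3 (100.3) and by bub-1 (92.2). S phase genes had summits at 8 of 15 (53.3%), with 6 in the list of replicate 1 and 7 in that of replicate 2, but at 5 when a summit counted only for the gene with the nearest 5' end. The order of the lists by share changed with the setting. The other thresholded list (background 10.5%) held 5 of 7 synMuv suppressors and 9 of 15 S phase genes. By nearest 5' end (background 7.34%) synMuv suppressors had 1 of 7, cell cycle genes 7 of 18 and S phase genes 5 of 15. The S phase genes were led by the sliding clamp gene pcn-1 (273.7, with 118.1 in replicate 1 and 155.9 in replicate 2) and by mcm-2 (160.3) and mcm-4 (140.1), which encode subunits of the helicase that opens DNA for replication. The median strongest signal of bound genes was 111.1 for S phase genes, 81.7 for cell cycle genes and 68.7 for class B genes. Each was below the 231.8 of the DREAM genes. The 6 DREAM signals ran from 64.3 to 376.6, the highest at the lin-54 peak, which is nearer to rpl-12. The counts and medians are over small lists, and no difference between the lists was tested.

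**Figure D4:**
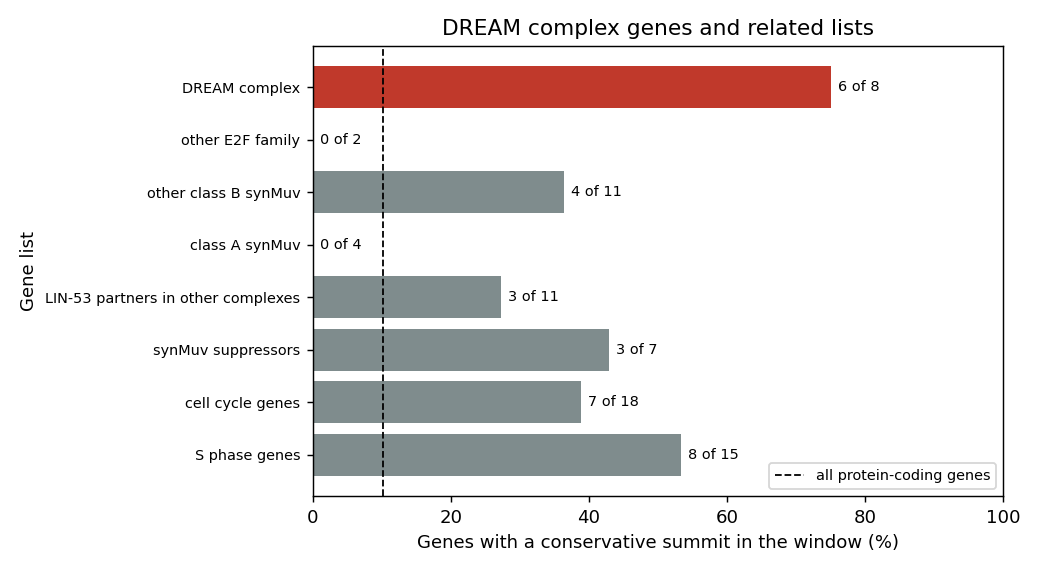
Share of each gene list with a conservative summit in the window (x axis, percent; bars start at 0), with counts at the bar ends and a dashed line at the 10.2% of all protein-coding genes. The DREAM bar reaches 75.0%, the S phase bar 53.3%, and the remaining lists lie at 42.9% or below, with none bound among the other E2F and the class A genes.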

How the data were processed

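RCOR-1::eGFP ChIP-seq of 2 replicates was deposited as peak lists on ce11, per the file notes. Which aligner and caller made them was not given in the sources used here. For every peak a deposited signal is given in an undefined unit, with the summit as an offset in bp. In the ranked lists the authors also give each region's −log10 IDR. The notes name a control alignment as an input of the lists; it was not analysed here. Values of signal describe and rank peaks within a list. The file notes give no read totals, so depth is unknown and no interval for a single signal can be given.

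Gene models were those of Ensembl release 115 (WBcel235); each region ended within the reference chromosome. Summits were assigned to nuclear protein-coding genes from 1000 bp upstream to the gene end, with Python 3.11.15 and pandas 2.3.3, and the counting was tested on simulated data. Percentiles are among nuclear regions of the same list. Replicate values come from each replicate's own lists. No test between groups was possible, so all results are descriptions. Named genes were, by rule, all members, the gene with the nearest 5' end, up to 3 strongest bound genes of each related list, and the strongest candidate region of members without a peak; other neighbouring genes were named after values were seen. Alternatives were the other lists, other windows, nearest-gene assignment, stronger or replicated peaks and other flanks for sequence matches. Members and lists were chosen with earlier results of these data known.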

Additional observations from a re-analysis of the deposited data

How the results depend on the processing

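The count of DREAM genes with a summit stayed within 1.5 times of 6 under each of the 10 alternatives, at 5 or 6, with 5 to 6 when either replicate was left out. Related genes were pooled over the other lists, each gene counted once, and the site shared by lin-61 and bub-1 counted for both. Those with a summit numbered 23 (background 10.2% of all protein-coding genes), 14 without replicate 1 (6.99%) and 16 without replicate 2 (7.44%). They numbered 12 when peaks not above the median signal were left out (5.8%) and 10 for peaks found in both replicates' own lists (5.22%). Fewer peaks enter these settings, and the share over all protein-coding genes was lower in each of them too. E2F matches at the 9 member peaks were 4 within 150 and within 100 bp of the summit and 1 within 50 bp. CHR matches numbered 7 within 150 bp, and 4 with the 5 upstream peaks alone, a set chosen after seeing the data, which holds fewer peaks. The median distance between the replicates' summits was 14 bp in the thresholded lists (5 peaks) and 26 bp in the ranked lists (7 peaks). In the ranked lists it ranged from 0 to 160 bp, the largest at lin-52. The median there over all conservative peaks with a pair was 20 bp. No paired analysis was possible because the series has a single group. Without read totals, how far depth limits the weak lin-52 and dpl-1 regions cannot be told.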
